A study of Mus musculus with 32 samples.

Results

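Osteocalcin-high mature osteoblasts were the cells of osteogenic marrow cultures that carried the most osteocalcin transcript and did not score high for hypoxia-induced genes. They were chosen from their own counts. Of 107853 barcodes in one of the 2 sequencing runs, 48776 had 400 to 6200 detected genes, at most 10% mitochondrial transcripts, at least 5000 unique molecular identifiers (UMIs, 1 per captured transcript) and fewer than 2 UMIs of the macrophage gene *Tyrobp* per 10000. Of these, 22877 held at least 3% of their UMIs on *Ibsp*, which encodes bone sialoprotein, and are called *Ibsp*-high cells. The 6444 members were the *Ibsp*-high cells in the upper tercile of summed *Bglap*, *Bglap2* and *Bglap3* UMIs per 10000 that also lay under the 75th percentile of a hypoxia score, the mean log(1 + UMIs per 10000) of *Egln3*, *Ero1l*, *Ndrg1*, *Car12*, *P4ha2*, *Adm*, *Bnip3* and *Ankrd37*. They made up 28.2% of *Ibsp*-high cells and 13.2% of all cells within the limits. The other 16433 *Ibsp*-high cells were 10713 osteocalcin-lower cells under the score limit, 1182 osteocalcin-high cells at or above it (hypoxia-high osteocalcin-high cells) and 4538 osteocalcin-lower cells at or above it.

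The cultures were bone marrow-derived stromal cells from 77 Diversity Outbred (DO) mice, a genetically heterogeneous population of both sexes, grown in osteogenic medium with ascorbic acid, β-glycerophosphate and dexamethasone (BMSC-OBs). All cultures received the same medium, so there was no treatment, genotype or time group to compare. Each of 16 pools joined cells of 4 or 5 mice and was loaded as 1 droplet library for single-cell RNA-seq (scRNA-seq) and sequenced in 2 runs, giving 32 samples. Barcodes were not traced to single mice, which makes the pool the unit of replication, and the mice behind members and comparison cells of a pool can differ.

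Osteoblasts build bone by secreting a type I collagen matrix and then mineralizing it. Osteocalcin is a small vitamin K-dependent protein of that matrix, made late in the life of an osteoblast, and it binds mineral through γ-carboxylated glutamate residues. Cells that become enclosed in the matrix turn into osteocytes, which make proteins that govern mineral and phosphate (*Dmp1*, *Phex*, *Mepe*) and the Wnt antagonist sclerostin (*Sost*).

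Mice carry 3 osteocalcin genes side by side on the minus strand of chromosome 3. In GRCm38, the build of the files, GENCODE M21 places *Bglap* at chr3:88383501-88384464, *Bglap2* at chr3:88377736-88378699 and *Bglap3* at chr3:88368616-88372743. Their coding sequences, each split over 4 exons, are shown because the choice of members rests on summing these copies. Capitals mark the bases that differ from *Bglap*.
Bglap: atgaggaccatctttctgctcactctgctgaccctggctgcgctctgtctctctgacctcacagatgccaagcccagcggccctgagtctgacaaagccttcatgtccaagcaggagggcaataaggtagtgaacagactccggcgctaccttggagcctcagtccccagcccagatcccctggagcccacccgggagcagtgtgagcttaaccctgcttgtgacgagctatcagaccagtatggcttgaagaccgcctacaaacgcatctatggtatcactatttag
Bglap2: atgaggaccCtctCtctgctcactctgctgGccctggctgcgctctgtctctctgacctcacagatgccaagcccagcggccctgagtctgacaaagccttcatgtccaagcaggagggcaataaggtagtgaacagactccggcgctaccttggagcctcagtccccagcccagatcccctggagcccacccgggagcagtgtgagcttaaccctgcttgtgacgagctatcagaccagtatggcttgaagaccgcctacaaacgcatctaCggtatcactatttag
Bglap3: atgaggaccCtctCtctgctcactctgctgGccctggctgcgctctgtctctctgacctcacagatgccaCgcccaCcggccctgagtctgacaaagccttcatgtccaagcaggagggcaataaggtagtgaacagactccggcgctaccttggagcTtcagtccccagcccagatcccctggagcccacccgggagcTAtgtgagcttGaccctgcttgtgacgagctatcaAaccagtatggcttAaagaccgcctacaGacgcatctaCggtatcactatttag
*Bglap2* differed from *Bglap* at 4 of 288 bases and *Bglap3* at 13. Over the last 150 bases of the transcripts, where 3′ counting takes most of its reads, *Bglap* was 99.3% identical to *Bglap2* and 98% identical to *Bglap3*. How UMIs divide between the copies is therefore uncertain, and their sum is the firmer value.

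The 250 bases before the start are shown for *Bglap* (chr3:88384467-88384716, minus strand) and for the first annotated start of *Bglap3* (chr3:88372742-88372991, minus strand), from RefSeq on GRCm38.p6. Capitals mark ACCACA, the core recognized by RUNX factors, and TATAAA, one form of the TATA box, both searched on both strands.
Bglap promoter: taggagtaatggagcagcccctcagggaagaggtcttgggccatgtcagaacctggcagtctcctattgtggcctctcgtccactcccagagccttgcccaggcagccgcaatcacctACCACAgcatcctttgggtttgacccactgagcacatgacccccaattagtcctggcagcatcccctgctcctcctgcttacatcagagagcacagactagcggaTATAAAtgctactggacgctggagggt
Bglap3 promoter: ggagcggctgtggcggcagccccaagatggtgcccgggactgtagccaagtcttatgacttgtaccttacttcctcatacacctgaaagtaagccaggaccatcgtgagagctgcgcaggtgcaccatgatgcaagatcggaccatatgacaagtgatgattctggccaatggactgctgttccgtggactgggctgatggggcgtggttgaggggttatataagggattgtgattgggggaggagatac
*Bglap* held 1 ACCACA, 132 bases before the start, and 1 TATAAA, and the *Bglap3* stretch held neither of these exact strings. Other forms of the TATA box were not searched. Of 27025 mouse promoters of this length, 14.2% held ACCACA and 13.0% held TATAAA. These matches describe letters and not bound sites.

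Total counts per pool ran from 53990642 to 100777353 UMIs. A pool contributed 91 (pool 7) to 636 (pool 8) members, with a median of 452.5, and members made up 10% (pool 10) to 46.2% (pool 8) of its *Ibsp*-high cells. Pools 1 and 2 stood apart, with 1 of 771 and 2 of 1140 *Ibsp*-high cells at or above the score limit and none of them osteocalcin-high. Pools 6 and 14 held 9 and 5 hypoxia-high osteocalcin-high cells, so comparisons with that class used the 12 pools with at least 20. Of the members, 94.7% were members again when the rule was applied to the other run of the same libraries, and 2 member barcode sequences occurred in more than 1 pool.

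Members and the other *Ibsp*-high cells of a pool need not come from the same mice. Cells with Y-linked UMIs and no *Xist* UMI were counted as a share of the cells with UMIs of only 1 of these kinds. Cells with both or neither were not counted. This share in members minus that in the others ran from -41.0 points (pool 6) to 39.4 (pool 9). It was over 10 points apart in 6 pools. No doublet caller was run. Droplets with at least 2 *Xist* and 2 Y-linked UMIs, which can hold cells of a female and a male mouse, made up 1.21% of members (78 cells) and 1.73% of the others. At least 2 leukocyte marker UMIs per 10000 were seen in 18.6% of members and 19.8% of the others.

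Osteocalcin levels, which chose the members, are given as a description. The median member held 255 osteocalcin UMIs per 10000 (25th to 75th percentile 166 to 426, highest 2658), and the median of the other *Ibsp*-high cells was 22.3. The limit lay at 105.97, with the lowest member at 105.98 and the highest cell under the limit at 105.952, and 329 members (5.11%) lay within 10% above it. Values ran through the limit without a gap, so the members are a range cut from a continuous measure. The highest hypoxia score of a member was 1.33239 against a limit of 1.33248, and the lowest *Ibsp* share of a member was 3.00%. Pool medians of members ran from 169 (pool 13) to 379 (pool 8).

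The copies did not hold fixed shares. In members, *Bglap* held 71.5% of osteocalcin UMIs on average over pools (lowest 58.5%, highest 93.8%), *Bglap2* 24.8% (3.53% to 39.5%) and *Bglap3* 3.66% (1.79% to 9.03%). The other *Ibsp*-high cells showed 68.4%, 26.9% and 4.64%. As levels, members held 229 ± 47.3 (SD, n = 16 pools) *Bglap* UMIs per 10000, from 149 to 326, and 81.4 ± 40.01 of *Bglap2*, from 12.3 to 177. *Bglap3* stood at 11.6 ± 6.46, from 4.29 to 26.5. In hypoxia-high osteocalcin-high cells summed osteocalcin was lower than in members, 253 ± 51.6 (n = 12 pools) against 322 ± 65.3 UMIs per 10000 (n = 16). *Ibsp*, also part of the rule, stood at 866 ± 115 UMIs per 10000 in members and 752 ± 51.2 in the others, and at 723 ± 79.6 (n = 12) in hypoxia-high osteocalcin-high cells.

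**Figure D1:**
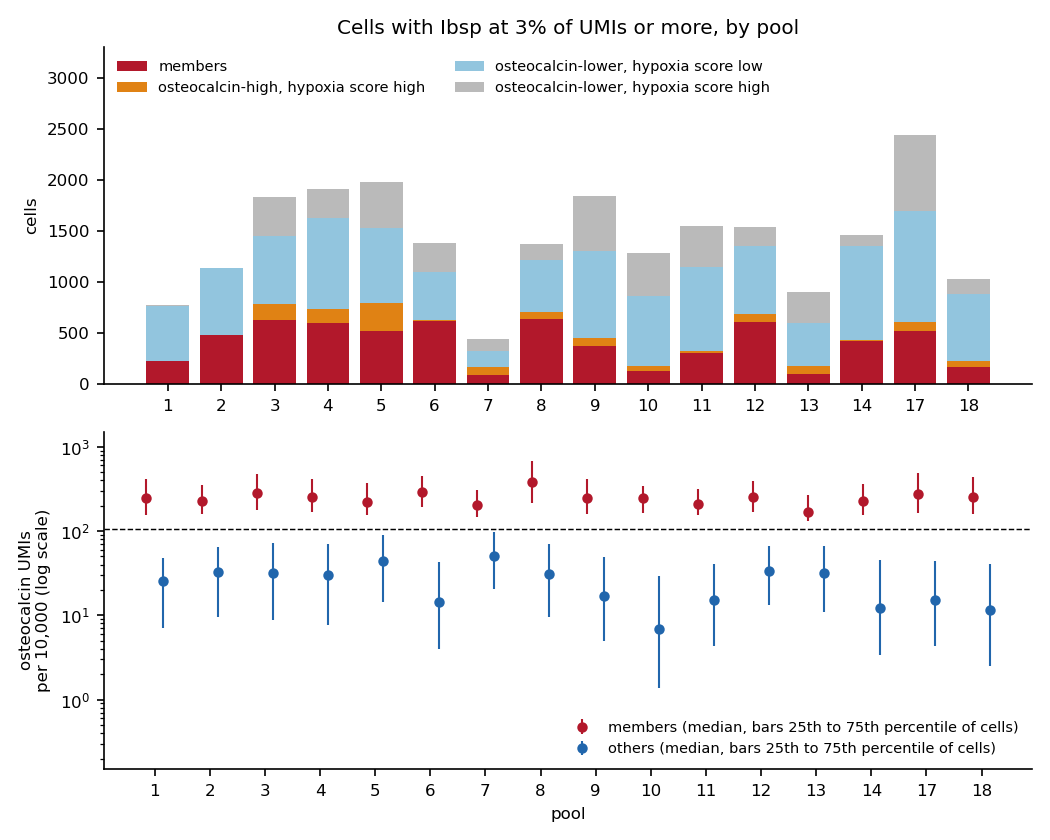
Upper panel, number of *Ibsp*-high cells (y axis) in each of 16 pools (x axis), stacked by class; lower panel, osteocalcin UMIs per 10000 (log scale) of members and of the other *Ibsp*-high cells, as the median over cells with bars from the 25th to the 75th percentile and the limit as a dashed line. Members number 91 to 636 a pool, and pools 1 and 2 lack the hypoxia-high osteocalcin-high class.

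Genes outside the rule were then compared, by summing UMIs per pool and class and fitting all genes together in edgeR (quasi-likelihood test, pools as blocks). Levels are in CPM, the UMIs of a gene scaled by the library total, here over genes outside the rule. Mitochondrially encoded genes were left out with those of the rule, here and wherever genes or UMIs outside the rule are named. Levels from these fits were further divided by the scaling factors of the fit. Fold changes are log2 values ± SE with Benjamini-Hochberg adjusted p. The classes were cut from the same cells that were measured, so genes that follow osteocalcin from cell to cell were bound to differ between them. The 3 comparisons share the members. *Thbs4*, *Mepe*, *Col11a1*, *Cadm1*, *Mt1*, *Bsg*, *Ifitm5*, *Smpd3*, *Phex* and *Sost* are named below. The study picked them on these samples to mark its osteoblast, osteoblast progenitor (*Ifitm5*, *Smpd3*) and osteocyte-like clusters. They are not independent evidence of their direction. Against all other *Ibsp*-high cells, 2571 of 11990 genes were higher in members (21.4%) and 3042 lower (25.4%). Without scaling by TMM (trimmed mean of M-values) the split was 1452 higher and 4887 lower, and without the pool block 1293 and 1450. Against osteocalcin-lower cells under the score limit, which lie on the other side of the osteocalcin limit, 2493 of 11967 genes were higher (20.8%) and 2732 lower (22.8%), and without TMM 1110 and 5701, without the block 1056 and 985. Against hypoxia-high osteocalcin-high cells, which lie on the other side of the score limit, 2137 of 9306 genes were higher (23%) and 2208 lower (23.7%), and without TMM 2875 and 1619. The median log2 fold change over all genes tested was -0.02, -0.02 and -0.0039 in these comparisons. Counts within gene lists are to be read beside the percentages above, which cover all genes tested. In the settings named below, equal depth means cells thinned to 4000 UMIs. Y-typed cells are those with Y-linked UMIs and no *Xist* UMI. Pools of alike sex-linked make-up are the 10 in which their share, as defined earlier, differed by at most 10 points. Without pools 1 and 2, 3055 genes were higher and 3070 lower against all other *Ibsp*-high cells, and 3018 and 2710 against osteocalcin-lower cells.

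*Ifitm5* (chr7:140948958-140950291), an osteoblast membrane protein mutated in osteogenesis imperfecta and the marker of these cells that the rule did not use, was 590.1 to 1278 CPM (median 863) in the members of a pool and 403 to 935 CPM (median 621) in the other *Ibsp*-high cells. Members were higher in 16 of 16 pools although the ranges overlapped (0.53 ± 0.04, adjusted p = 5.2e-09). At 4000 UMIs a cell, 89.8% of members and 75.2% of the others held a UMI of it. Leukocyte-like cells of the same libraries, which should lack it, showed 4.35% (median depths before thinning 21388, 20110 and 8284 UMIs). The study used *Ifitm5* as a gene of its osteoblast progenitor cluster, so its rise does not tell mature osteoblasts from progenitors, and the other markers of the label were used by the rule and test nothing.

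The type I collagen genes, which encode the bulk of bone matrix protein, were the most abundant of the genes that rose. *Col1a1* was 27168 to 65723 CPM (median 56782) in members and 21529 to 49869 CPM (median 37658) in the other *Ibsp*-high cells, and pool 2 was lowest among members. Every pool was higher in members, with a log2 fold change of 0.58 ± 0.05, adjusted p = 8.0e-09. *Col1a2* moved alike (0.64 ± 0.05). Against osteocalcin-lower cells *Col1a1* rose by 0.73 ± 0.05. *Col1a1* was slightly lower than in hypoxia-high osteocalcin-high cells (-0.13 ± 0.05, adjusted p = 0.021), a call that was lost without pool 3 (-0.11, adjusted p = 0.063) and under 7 other settings (-0.15 to -0.05, adjusted p from 0.054 to 0.27), and *Col1a2* did not pass (0.06 ± 0.05, adjusted p = 0.35).

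Other fibrillar collagens of the bone fibril rose with them. Type XI collagen sets fibril width, and its chain gene *Col11a1* was 2016 to 5098 CPM (median 3892) in members and 1048 to 2319 CPM (median 1915) in osteocalcin-lower cells, higher in 16 of 16 pools (0.98 ± 0.05, adjusted p = 1.0e-11). *Col11a2* was 365 to 1091 CPM (median 852) against 227 to 510.4 CPM (median 403), also higher in 16 of 16 pools (1.09 ± 0.07, adjusted p = 1.6e-10). The difference in *Col11a2* from hypoxia-high osteocalcin-high cells was 0.01 ± 0.0614. Of 11 fibrillar collagen genes, 6 were higher and 3 lower in both 16-pool comparisons (median 0.49 against all others and 0.61 against osteocalcin-lower cells), and 1 was higher and 2 lower of 8 against hypoxia-high osteocalcin-high cells. The 3 lower ones in the 16-pool comparisons were *Col3a1*, typical of fibroblastic matrix (-1.15 ± 0.11), the cartilage collagen *Col2a1* (-1.996 ± 0.18) and *Col5a3*.

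The 13 other collagens tested went mostly the other way, with 2 higher and 10 lower in both 16-pool comparisons (median -0.65 and -0.61), and 3 higher and 4 lower of 11 against hypoxia-high osteocalcin-high cells. *Col12a1*, which coats collagen fibrils in tendon and periosteum, was 32.0 to 102 CPM (median 59.5) in members and 56.9 to 228 CPM (median 181) in the others and was lower in 16 of 16 pools (-1.49 ± 0.10, adjusted p = 7.9e-10). *Col8a1* was lower too (-1.04 ± 0.10), though higher than in hypoxia-high osteocalcin-high cells (1.05 ± 0.17). Basement membrane genes such as *Col4a1* were lower than in all others (-0.75 ± 0.10). The 2 that rose were *Col22a1*, found at tissue junctions (1.101 ± 0.08), and the transmembrane collagen *Col13a1* (0.70 ± 0.07), which was lower than in hypoxia-high osteocalcin-high cells (-0.19 ± 0.06).

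Proteins that fold, trim and cross-link collagen were mostly higher than in osteocalcin-lower cells. Of 34 genes, 26 were higher and 2 lower against osteocalcin-lower cells (median 0.30), 19 and 4 against all other *Ibsp*-high cells, and 7 and 10 of 33 against hypoxia-high osteocalcin-high cells (median -0.04). *Sparc*, a collagen-binding matrix protein counted in this list and among the phosphoproteins, was 18636 to 34089 CPM (median 30641) in members and 14264 to 21028 CPM (median 17546) in osteocalcin-lower cells (0.75 ± 0.03, adjusted p = 8.1e-13). *Bmp1*, the procollagen C-proteinase, rose by 0.67 ± 0.05, its enhancer *Pcolce* by 0.57 ± 0.05 and the collagen chaperone *Serpinh1* by 0.33 ± 0.04. The cross-linking oxidases *Lox* (0.21 ± 0.05) and *Loxl2* (0.60 ± 0.06) were higher than in osteocalcin-lower cells but lower than in hypoxia-high osteocalcin-high cells (-0.43 ± 0.05 and -0.59 ± 0.08). The *Lox* call against osteocalcin-lower cells was lost without TMM (0.09, adjusted p = 0.1) and without the pool block (0.21, adjusted p = 0.076).

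*Serpinf1* (chr11:75409769-75422701), which encodes the secreted protein PEDF and is mutated in a form of osteogenesis imperfecta, was 969 to 2249 CPM (median 1698) in members and 594 to 1165 CPM (median 922) in osteocalcin-lower cells. The difference held in 16 of 16 pools (0.96 ± 0.04, adjusted p = 5.4e-13). Its promoter (RefSeq, chr11:75422624-75422873, minus strand) held ACCACA 2 times, 117 and 90 bases before the start. The same stretches of *Ibsp*, *Ifitm5*, *Thbs4*, *Col11a1*, *Col11a2*, *Cyfip2*, *Cpz* and *Mlip* held none.

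**Figure D2:**
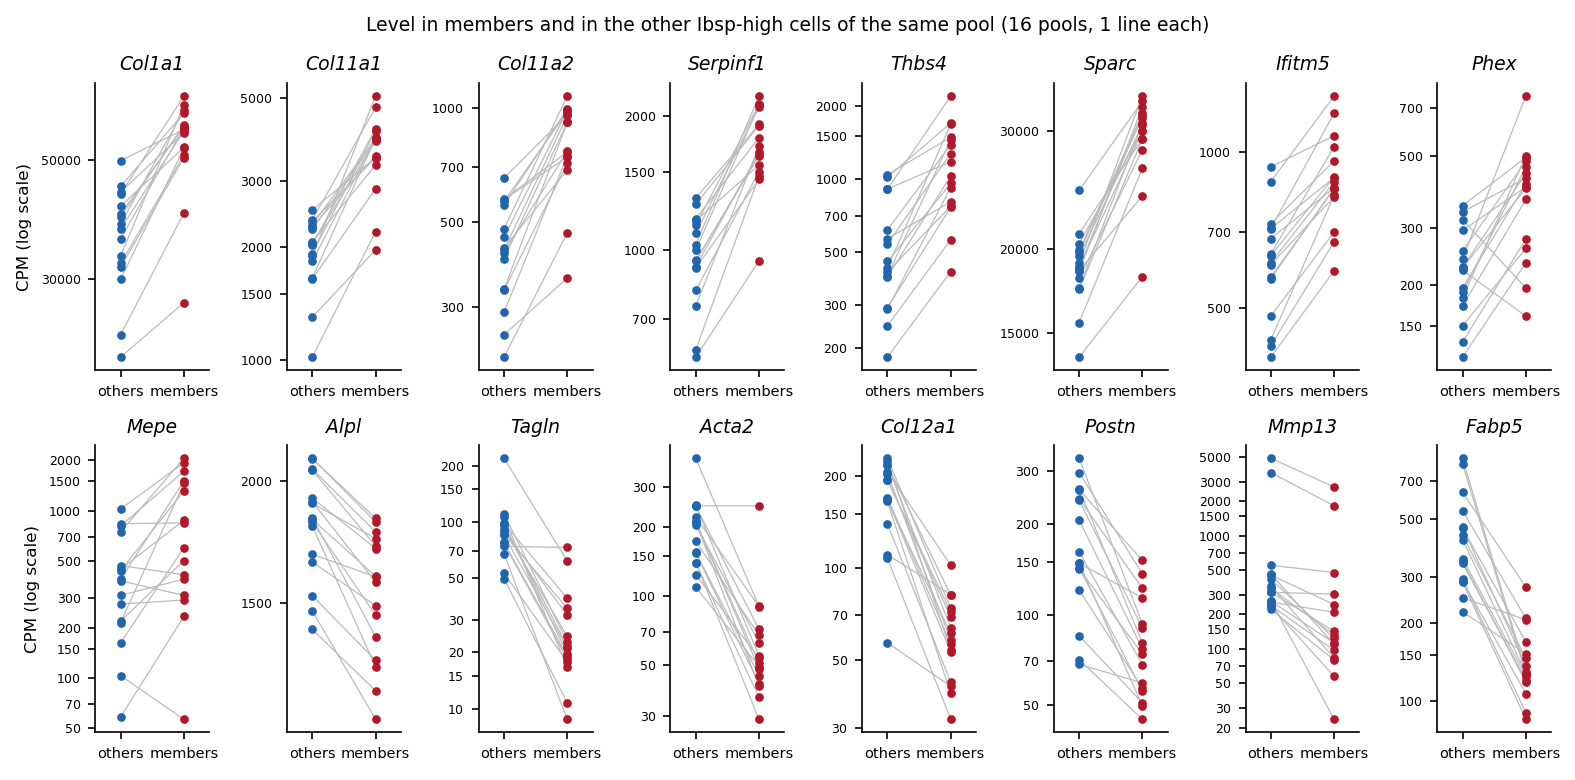
Level (CPM, log scale) of 16 genes in the other *Ibsp*-high cells (blue) and in members (red) of the same pool, 1 line per pool. *Col1a1*, *Col11a1*, *Col11a2*, *Serpinf1*, *Thbs4*, *Sparc* and *Ifitm5* rise in all 16 pools, *Alpl*, *Tagln*, *Col12a1*, *Postn*, *Mmp13* and *Fabp5* fall in all 16, *Acta2* falls in 15 of 16, and *Phex* and *Mepe* rise in most.

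Of the acidic phosphoproteins of bone, which bind mineral and collagen, and their kinase, all 5 tested were higher in members than in the other *Ibsp*-high cells (median 0.39). *Spp1* (osteopontin) was 11037 to 39868 CPM (median 19885) against 9439 to 26147 CPM (median 15712), higher in 12 of 16 pools (0.39 ± 0.09, adjusted p = 0.0016). *Mepe* was the most variable, 56.7 to 2059 CPM (median 724) against 58.5 to 1024 CPM (median 385), higher in 13 of 16 pools (0.96 ± 0.21, adjusted p = 9.2e-04). *Dmp1* was 363 to 1209.7 CPM (median 759) against 271 to 959.5 CPM (median 543), higher in 13 of 16 pools (0.36 ± 0.07). The calls of *Spp1* and *Dmp1* were lost without the pool block (0.40, adjusted p = 0.074 and 0.37, adjusted p = 0.15). The kinase for such proteins, *Fam20c*, passed against all others (0.24 ± 0.07, adjusted p = 0.0061) but not against osteocalcin-lower cells (0.14 ± 0.07, adjusted p = 0.1), where it passed without pool 2 (0.17, adjusted p = 0.038) or pool 13 (0.16, adjusted p = 0.048). Its call against all others was lost without TMM (0.15, adjusted p = 0.07), without the pool block (0.23, adjusted p = 0.097), in Y-typed cells (0.20, adjusted p = 0.083) and at equal depth (0.18, adjusted p = 0.17). Against hypoxia-high osteocalcin-high cells *Fam20c* passed (0.45 ± 0.13, adjusted p = 0.0055) and the other 4 did not.

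Osteocyte genes differed in balance between comparisons. Against osteocalcin-lower cells 12 of 21 osteocyte genes were higher and 4 lower (median 0.21); against all other *Ibsp*-high cells 8 were higher and 5 lower. The balance was the other way against hypoxia-high osteocalcin-high cells, with 2 higher and 9 lower of 19 (median -0.23). *Phex*, an enzyme whose loss causes phosphate wasting, was 165 to 765 CPM (median 410.3) in members and 102 to 333 CPM (median 213) in osteocalcin-lower cells (0.88 ± 0.13, adjusted p = 1.2e-05). *Sost* was 18.6 to 840.4 CPM (median 262) against 23.8 to 253 CPM (median 117), higher in 13 of 16 pools (1.07 ± 0.18, adjusted p = 7.0e-05). The Wnt antagonist *Dkk1* rose by 0.86 ± 0.11 and the protease inhibitor *Cst3* by 0.76 ± 0.10. Against hypoxia-high osteocalcin-high cells *Dkk1* was lower in members (-1.25 ± 0.18), *Sost* was lower (-0.70 ± 0.27) but lost the call without pool 5, 7, 11, 13 or 18 (-0.72 to -0.60, adjusted p from 0.051 to 0.087) and in DESeq2 (-0.74, adjusted p = 0.087), without TMM (-0.63, adjusted p = 0.06), without the pool block (-0.55, adjusted p = 0.22), in pools with at least 50 cells (-0.60, adjusted p = 0.087) and under a stricter osteocalcin limit (-0.41, adjusted p = 0.15), and *Phex* (0.04 ± 0.09, adjusted p = 0.76) and *Mepe* (-0.23 ± 0.28, adjusted p = 0.54) did not pass. *Fgf23*, the phosphate hormone of osteocytes, was found in a mean of 0.0121% of members at 4000 UMIs; its level was too low to compare.

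Enzymes and transporters of mineralization split by comparison, with 4 higher and 5 lower of 13 against osteocalcin-lower cells (median -0.06) and 8 higher and 1 lower of 11 against hypoxia-high osteocalcin-high cells (median 0.55). *Alpl*, the tissue-nonspecific alkaline phosphatase that marks earlier osteoblasts, was 1140.2 to 1830 CPM (median 1585) in members and 1409 to 2108 CPM (median 1828) in the others. It was lower in 16 of 16 pools by a small margin (-0.24 ± 0.03, adjusted p = 1.9e-06), and it was the 1 that was lower than in hypoxia-high osteocalcin-high cells (-0.28 ± 0.05). *Mgp*, the mineralization inhibitor matrix Gla protein, was 45.6 to 252 CPM (median 89.2) in members and 120.5 to 846 CPM (median 209.5) in osteocalcin-lower cells (-1.20 ± 0.16, adjusted p = 4.0e-06). Its difference from hypoxia-high osteocalcin-high cells (0.52 ± 0.12, adjusted p = 8.7e-04) turned in sign with the score limit at the median (-0.12, adjusted p = 0.66) and lost its call without the pool block (0.71, adjusted p = 0.062) and under a stricter osteocalcin limit (0.32, adjusted p = 0.32). The pyrophosphate-making enzyme *Enpp1* was slightly lower than in osteocalcin-lower cells (-0.29 ± 0.08) and the choline phosphodiesterase *Enpp6* higher (0.76 ± 0.11). The *Enpp1* call was lost without the pool block (-0.24, adjusted p = 0.49), in the 10 pools of alike sex-linked make-up (-0.25, adjusted p = 0.068), with terciles within each pool (-0.15, adjusted p = 0.14), with the score limit at the median (-0.23, adjusted p = 0.056) and in Y-typed cells (-0.24, adjusted p = 0.072). The phosphate transporter *Slc20a1* rose by 0.25 ± 0.08, and lost its call without TMM (0.13, adjusted p = 0.17) and in the 10 pools of alike sex-linked make-up (0.09, adjusted p = 0.2). *Phospho1*, a matrix vesicle phosphatase, was near the limit of detection, with a median of 2.30 CPM in members, and did not pass (0.17 ± 0.11, adjusted p = 0.24).

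Osteocalcin is trimmed and γ-carboxylated before it is secreted. Of 6 genes tested for these steps and for its glycosylation, 5 were higher against all other *Ibsp*-high cells, 4 against osteocalcin-lower cells and 2 against hypoxia-high osteocalcin-high cells, and none was lower. Against all others *Furin* lost its call without any one of pools 7 to 12 (0.08 to 0.09, adjusted p from 0.055 to 0.066). *Furin* also lost it without TMM (5.3e-05, adjusted p = 0.999), at equal depth (0.06, adjusted p = 0.43) and under further settings. *Pcsk7*, a proprotein convertase like it, lost its call without pool 3, 5, 8, 10, 12, 13 or 17 (0.11 to 0.13, adjusted p from 0.053 to 0.087). So it did without TMM (0.04, adjusted p = 0.5), at equal depth (0.20, adjusted p = 0.17) and under further settings. *Vkorc1*, which recycles vitamin K, was 229 to 993 CPM (median 629) in members and 175 to 559 CPM (median 436) in osteocalcin-lower cells, higher in 16 of 16 pools (0.54 ± 0.05, adjusted p = 8.9e-09). *Ggcx*, the carboxylase itself, was higher in 16 of 16 pools at a low level (0.37 ± 0.05, adjusted p = 9.3e-07). Against osteocalcin-lower cells *Furin*, which cleaves pro-osteocalcin, differed by 0.03 ± 0.03 (adjusted p = 0.37), lower without TMM (-0.09, adjusted p = 0.0064) and higher without pools 1 and 2 (0.07, adjusted p = 0.035), and *Galnt3*, a glycosyltransferase, by -0.03 ± 0.05 (adjusted p = 0.67).

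Of the transcription factors that commit cells to the osteoblast fate, neither *Runx2* nor *Sp7* passed against all other *Ibsp*-high cells. *Runx2* was 89.5 to 155 CPM (median 111) in members and 87.0 to 152 CPM (median 109) in the others (0.02 ± 0.03, adjusted p = 0.62), and *Sp7* (osterix) 103 to 182 CPM (median 134) and 119 to 233 CPM (median 144) (-0.11 ± 0.06, adjusted p = 0.14), with *Sp7* passing as lower without pool 1 (-0.13, adjusted p = 0.015). *Sp7* also passed as lower without pools 1 and 2 (-0.16, adjusted p = 0.0055) and without TMM (-0.20, adjusted p = 0.0084). *Dlx5* gave 0.09 ± 0.06, adjusted p = 0.18, and passed as higher with the score limit at the median (0.16, adjusted p = 0.033). Against osteocalcin-lower cells *Runx2* was lower by a small margin (-0.09 ± 0.04, adjusted p = 0.047), a call lost on leaving out any one of pools 4 to 14 or pool 17 (-0.10 to -0.07, adjusted p from 0.051 to 0.11) and under 12 other settings (-0.10 to -0.04, adjusted p from 0.055 to 0.46). Of 27 factors tested, 8 were higher and 4 lower against all others, and 5 and 2 against osteocalcin-lower cells. Against hypoxia-high osteocalcin-high cells 6 were higher and 8 lower of 24. Over all genes tested, in the same order, the shares were 21.4% and 25.4%, 20.8% and 22.8%, and 23% and 23.7%.

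Signalling genes split. Of 25 Wnt antagonists, receptors and readouts, 5 were higher and 9 lower against osteocalcin-lower cells, and 7 and 5 of 19 against hypoxia-high osteocalcin-high cells. *Wnt4* was 22.4 to 66.7 CPM (median 43.5) in members and 11.2 to 57.3 CPM (median 24.1) in osteocalcin-lower cells (0.75 ± 0.12, adjusted p = 2.1e-05), while the non-canonical ligand *Wnt5a* (-0.88 ± 0.10) and the Wnt readout *Axin2* (-0.58 ± 0.15) were lower. *Axin2* lost its call in the 10 pools of alike sex-linked make-up (-0.44, adjusted p = 0.13). Of 33 genes of the BMP and TGF-β pathways, 11 were higher and 10 lower against osteocalcin-lower cells, and 7 and 9 of 28 against hypoxia-high osteocalcin-high cells. The BMP antagonist *Bmp3* rose by 0.50 ± 0.05 in 16 of 16 pools and *Bmp2* fell (-0.45 ± 0.08). Of 17 hormone receptors, 9 were higher and 3 lower against osteocalcin-lower cells (median 0.16), 6 and 4 against all others, and 4 and 8 of 16 against hypoxia-high osteocalcin-high cells (median -0.16). The vitamin D receptor *Vdr*, whose ligand acts on osteocalcin genes, was 68.2 to 192 CPM (median 112) against 46.0 to 111 CPM (median 74.9) in the other *Ibsp*-high cells (0.55 ± 0.09, adjusted p = 4.4e-05), the estrogen receptor *Esr1* rose by 0.45 ± 0.12, and the parathyroid hormone receptor *Pth1r* was lower (-0.19 ± 0.04). The call of *Esr1* was lost in the 10 pools of alike sex-linked make-up (0.33, adjusted p = 0.12), with the score limit at the median (0.30, adjusted p = 0.092), in Y-typed cells (0.31, adjusted p = 0.089) and at equal depth (0.23, adjusted p = 0.39), and that of *Pth1r* without the pool block (-0.17, adjusted p = 0.13). The osteoclast regulators RANKL (*Tnfsf11*, -1.20 ± 0.22) and its decoy OPG (*Tnfrsf11b*, -1.03 ± 0.24) were both lower, RANKL at no more than 2.50 CPM in any pool of members. The OPG call was lost without the pool block (-0.79, adjusted p = 0.091) and in the 10 pools of alike sex-linked make-up (-0.50, adjusted p = 0.072).

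Among genes picked by rank, *Cyfip2*, *Cpz*, *Mlip*, *Fxyd6*, *Sgca*, *Dcn*, *Thbs4*, *Col22a1*, *Robo2*, *Kazald1* and *Col11a2* were among the 12 of highest fold change over all other *Ibsp*-high cells among 348 genes that were higher in every pool at 20 CPM or more. *Thbs4* (chr13:92751590-92794818), the matrix glycoprotein thrombospondin 4, was 417 to 2237 CPM (median 1123) in members and 80.1 to 935 CPM (median 422) in osteocalcin-lower cells (1.53 ± 0.11, adjusted p = 2.9e-10). It was slightly lower than in hypoxia-high osteocalcin-high cells (-0.28 ± 0.11, adjusted p = 0.05), a call lost without pool 4, 5, 7, 8, 10, 12, 17 or 18 (-0.29 to -0.17, adjusted p from 0.06 to 0.1) and under 8 other settings (-0.28 to -0.15, adjusted p from 0.05 to 0.41). *Dcn*, the collagen-binding proteoglycan decorin, was 71.5 to 226 CPM (median 116) against 18.1 to 114 CPM (median 53.8) (1.19 ± 0.13, adjusted p = 2.0e-07) and was seen in 23.4% of members, 11.6% of the others and 1.18% of leukocyte-like cells at 4000 UMIs.

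*Cyfip2* (chr11:46193850-46312859), a subunit of the actin-regulating WAVE complex, was the one of these 12 among the 12 highest in all 3 comparisons. It was 21.3 to 74.3 CPM (median 39.4) in members and 3.88 to 41.1 CPM (median 9.19) in the others (1.91 ± 0.16, adjusted p = 9.0e-09), and members exceeded hypoxia-high osteocalcin-high cells in 12 of 12 pools (1.66 ± 0.15, adjusted p = 1.7e-08). At 4000 UMIs 13.2% of members held a UMI of it, close to the 12.2% of leukocyte-like cells, a type that also expresses it. *Mlip*, a partner of nuclear lamins known from muscle, was seen in 19.3% of members, 7.18% of the others and 0.253% of leukocyte-like cells, and rose by 1.59 ± 0.11. *Cpz*, a secreted carboxypeptidase with a Wnt-binding domain, was 4.07 to 63.3 CPM (median 34.6) against 0.859 to 16.7 CPM (median 12.0) (1.64 ± 0.14, adjusted p = 1.4e-08).

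Of 15 tested genes for thrombospondins, CCN and other adhesive matrix proteins, 6 were higher and 7 lower against all other *Ibsp*-high cells, and 5 and 3 of 12 against hypoxia-high osteocalcin-high cells. *Thbs1* was 1922 to 3938 CPM (median 2982) in members and 977 to 2558 CPM (median 2001) in the others (0.66 ± 0.05, adjusted p = 4.7e-09). The matrix proteins *Postn* (-1.11 ± 0.10, adjusted p = 1.9e-08) and *Tnc* (-0.93 ± 0.08, adjusted p = 2.5e-08), made by periosteal and progenitor cells, were lower in 16 and 16 of 16 pools, though *Tnc* was higher than in hypoxia-high osteocalcin-high cells in 12 of 12 (0.64 ± 0.10, adjusted p = 1.7e-05). Of 12 small leucine-rich proteoglycans, 3 were higher (*Dcn*, *Omd*, *Bgn*) and 7 lower, while against hypoxia-high osteocalcin-high cells 4 of 9 were higher and none lower. *Bgn* (biglycan) was 1335 to 2487 CPM (median 1807) against 683 to 1837 CPM (median 1286) (0.50 ± 0.06, adjusted p = 6.9e-07), and *Aspn* (asporin) was lower in 16 of 16 pools (-1.47 ± 0.15, adjusted p = 1.3e-07).

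Contractile and progenitor genes fell together. Of 13 markers of late mesenchymal progenitors (LMPs), 11 were lower than in all other *Ibsp*-high cells and 12 lower than in osteocalcin-lower cells, and none was higher (medians -1.11 and -1.28). *Tagln* (chr9:45929619-45936058), an actin cross-linking protein of smooth muscle, was 8.86 to 74.9 CPM (median 21.5) in members and 54.8 to 286 CPM (median 111) in osteocalcin-lower cells (-2.09 ± 0.15, adjusted p = 7.4e-10). *Acta2*, smooth muscle actin, was 28.9 to 249 CPM (median 52.3) against 109.8 to 401 CPM (median 208) in the other *Ibsp*-high cells, lower in 15 of 16 pools (-1.70 ± 0.13, adjusted p = 4.2e-09). At 4000 UMIs 11.8% of members and 22.6% of the others held a UMI of it, and 12.2% of leukocyte-like cells, which should lack it. Leukocyte-like cells were shallower before thinning (median 8284 UMIs against 21388 in members), so whether the share in members is background is not settled. The pool in which members were not lower was pool 2, with 248.9 CPM in members and 248.6 in the others. Against hypoxia-high osteocalcin-high cells 4 of 11 were higher in members and 1 was lower. *Acta2* was counted among the higher ones, although its share of those cells, 8.07%, also lay under that of leukocyte-like cells and its level there cannot be told from background.

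Cartilage and cell cycle genes were mostly lower than in all other *Ibsp*-high cells. All 5 chondrocyte markers tested were lower than in the other *Ibsp*-high cells (median -2.10), among them the cartilage proteoglycan *Acan*, 0 to 7.04 CPM (median 1.26) in members and 2.48 to 34.9 CPM (median 14.5) in the others (-3.42 ± 0.18, adjusted p = 4.4e-11). Of 23 cell cycle genes, 17 were lower and 2 higher, *Cdkn1c* and *Ccnd1* (median -0.69). Against osteocalcin-lower cells 18 were lower and 1 higher (median -0.86), and against hypoxia-high osteocalcin-high cells 1 was lower and 5 higher of 13 (median 0.30). *Mki67* was 0.446 to 43.4 CPM (median 3.82) against 3.94 to 37.5 CPM (median 9.21) (-1.04 ± 0.15, adjusted p = 1.2e-05), the cell cycle inhibitor *Cdkn1c* rose (0.69 ± 0.11, adjusted p = 2.6e-05), and cyclin D1 (*Ccnd1*) rose by 0.29 ± 0.07. The *Mki67* call was lost without the pool block (-0.68, adjusted p = 0.19) and the *Ccnd1* call without the pool block (0.27, adjusted p = 0.27) and in Y-typed cells (0.18, adjusted p = 0.12). *Ccnd1* did not pass against osteocalcin-lower cells (-0.12 ± 0.06, adjusted p = 0.091), where it was lower without pool 1 (-0.16, adjusted p = 0.017), without pool 2 (-0.15, adjusted p = 0.033) and with the score limit at the median (-0.16, adjusted p = 0.032). *Mmp13*, a collagenase of hypertrophic cartilage and late osteoblasts, was 23.6 to 2688 CPM (median 128) against 222 to 4821 CPM (median 328), lower in 16 of 16 pools (-1.27 ± 0.17, adjusted p = 3.7e-06), a call lost without the pool block (-0.96, adjusted p = 0.26). Pools 1 and 2 were the high ones, with 2688 and 1827 CPM in members against at most 470.1 elsewhere.

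Markers of leukocytes, endothelial cells and glia mostly did not pass, while 2 of 3 osteoclast markers did. Those of adipogenic progenitors went both ways. Over all genes tested against all other *Ibsp*-high cells, 21.4% were higher and 25.4% lower. Of 13 leukocyte markers tested, 11 did not pass and 2 were lower, and 1 of 9, *C1qb*, was higher than in hypoxia-high osteocalcin-high cells (0.57 ± 0.21); *Lyz2* was 43.0 to 234 CPM (median 84.8) in members and 57.8 to 153 CPM (median 78.8) in the others (0.04 ± 0.13, adjusted p = 0.82). A further setting left out droplets that may hold cells of a female and a male mouse. It also left out cells with leukocyte marker UMIs at the level counted earlier. There *Lyz2*, itself a leukocyte marker, was higher in members than in the others (0.18, adjusted p = 0.0019). It was also higher than in osteocalcin-lower cells (0.22, adjusted p = 2.8e-04). The part of that selection in these *Lyz2* values was not tested. Against osteocalcin-lower cells *Cd3e* was higher too, at 0 to 8.56 CPM (median 0.928) in members and 0 to 1.63 CPM (median 0.694) in those cells (0.75 ± 0.25, adjusted p = 0.021), and 2 of 14 leukocyte markers were lower. Of 3 osteoclast markers tested 2 were higher. *Acp5* was 9.79 to 39.2 CPM (median 15.2) against 6.38 to 22.1 CPM (median 14.1) (0.29 ± 0.10, adjusted p = 0.025), *Ctsk* was 119 to 200 CPM (median 163) against 99.0 to 196 CPM (median 139) (0.20 ± 0.04, adjusted p = 9.5e-04), and *Atp6v0d2*, which did not pass, was 0.186 to 6.40 CPM (median 2.15) against 0.622 to 7.74 CPM (median 1.79). Their part in any result was not tested. The 5 erythroid markers were too low to test, and neither of the 2 endothelial or glial markers tested passed. Of 15 markers of marrow adipogenic lineage progenitors (MALPs), 3 were higher, led by *Cebpb* (0.45 ± 0.07), and 5 lower, with *Lepr* (-0.78 ± 0.14) and *Pparg* (-0.61 ± 0.10) at under 10 CPM in every pool of members. Against osteocalcin-lower cells 2 MALP markers were higher and 9 lower (median -0.32), and against hypoxia-high osteocalcin-high cells 7 of 13 were higher and none lower (median 0.42), among them *Cebpa* (0.86 ± 0.15), *Fabp4* (0.66 ± 0.22) and *Lpl* (0.65 ± 0.21), which were both lower than in osteocalcin-lower cells (-0.48 ± 0.18 and -0.36 ± 0.11). The part of such cells in that comparison was not tested. Against all others *Xist* differed by -0.46 ± 0.21 (adjusted p = 0.084) and the Y-linked *Ddx3y* by -0.10 ± 0.20 (adjusted p = 0.73). *Xist* passed as lower without pool 6 (-0.57, adjusted p = 0.029) or pool 7 (-0.60, adjusted p = 0.016). It also passed without TMM (-0.55, adjusted p = 0.035) and with no low-count filter (-0.48, adjusted p = 0.029). So it did with terciles within each pool (-0.48, adjusted p = 0.049) and at equal depth (-0.49, adjusted p = 0.028). The part of the mice sampled in these differences was not tested. In cells with Y-linked UMIs and no *Xist* UMI alone (14 pools), 1861 genes were higher and 1670 lower, of which 1773 and 1643 were among those of all cells.

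**Figure D3:**
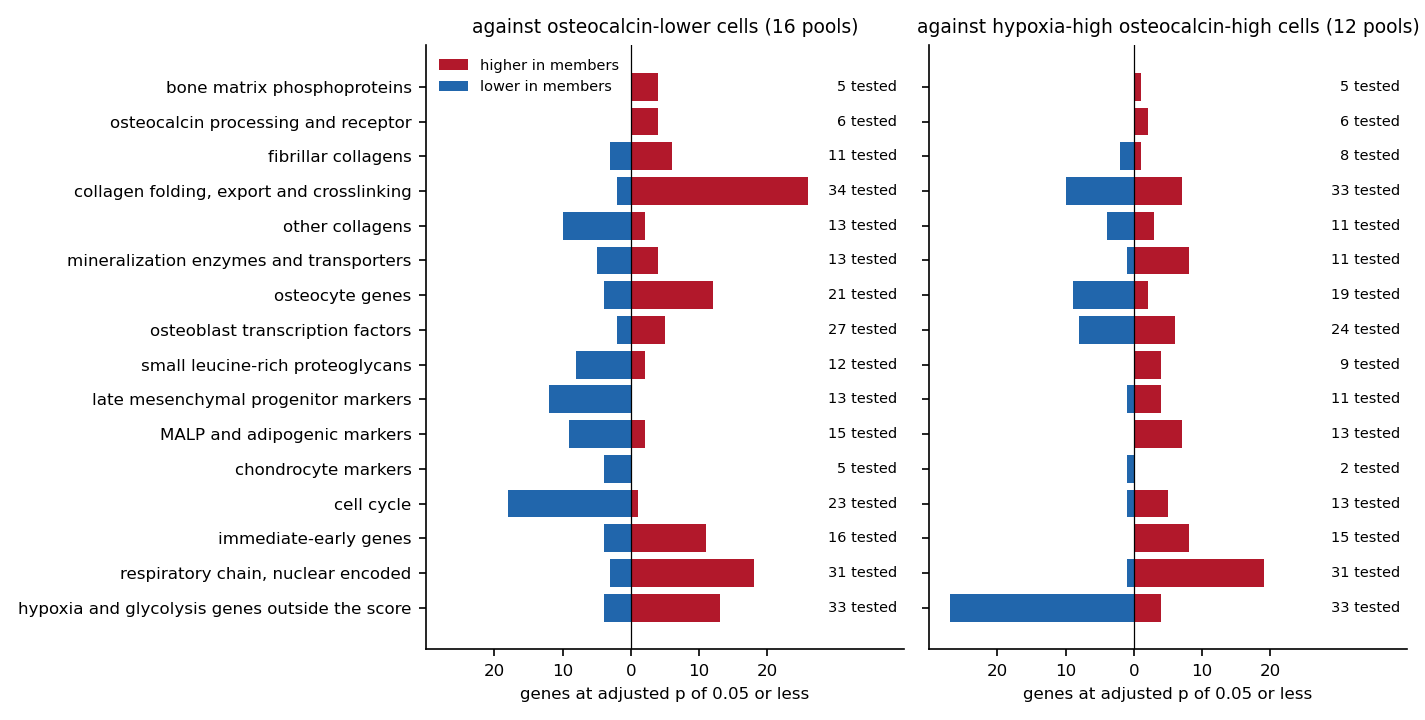
Number of genes of each list at an adjusted p of 0.05 or less, higher (red, right) and lower (blue, left) in members, against osteocalcin-lower cells (16 pools) and against hypoxia-high osteocalcin-high cells (12 pools), with the number tested at the right. Collagen folding genes are 26 higher of 34 on the left and 7 of 33 on the right, and hypoxia and glycolysis genes are 27 lower of 33 on the right.

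Against hypoxia-high osteocalcin-high cells, genes of the hypoxia response outside the score were lower in members, 27 of 33 (median -0.70), with 4 higher. Since a hypoxia score set these classes apart, such genes were bound to follow it. The glucose transporter *Slc2a1* was 61.1 to 124 CPM (median 66.7) in members and 160 to 303 CPM (median 227) in those cells (-1.59 ± 0.07, adjusted p = 1.1e-12), and the carbonic anhydrase *Car9* fell alike (-1.95 ± 0.13). Lactate dehydrogenase *Ldha* was lower by a smaller margin (-0.36 ± 0.04), and slightly higher than in osteocalcin-lower cells (0.09 ± 0.03), with the sign turned without TMM (-0.03, adjusted p = 0.3) and the call lost without the pool block (0.09, adjusted p = 0.57) and in the 10 pools of alike sex-linked make-up (0.08, adjusted p = 0.11). Of the same 33 genes, 13 were higher and 4 lower against osteocalcin-lower cells.

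Metallothioneins followed both limits of the rule. *Mt1*, a metal-binding protein induced by glucocorticoids and metals, was 567 to 2361 CPM (median 1148) in members and 315 to 1263 CPM (median 663) in osteocalcin-lower cells (0.88 ± 0.05, adjusted p = 2.5e-11). It was 1813 to 4832 CPM (median 3239.5) in hypoxia-high osteocalcin-high cells, above members in all 12 pools (-1.38 ± 0.13, adjusted p = 3.2e-08). Against all others, which hold both classes, *Mt1* did not pass (0.02 ± 0.12, adjusted p = 0.89), and with the score limit at the median it was lower in members (-0.43, adjusted p = 0.018) and in Y-typed cells higher (0.38, adjusted p = 0.032). *Mt2* was higher and lower likewise (1.07 ± 0.08 and -1.30 ± 0.13). *Bsg*, a chaperone of lactate transporters, was 0.52 ± 0.05 against osteocalcin-lower cells and -0.77 ± 0.07 against hypoxia-high osteocalcin-high cells.

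Among 462 genes higher in all 12 pools at a mean of 20 CPM or more, members exceeded hypoxia-high osteocalcin-high cells most in the chemokine *Cxcl1*. It was 96.2 to 590.2 CPM (median 182) against 10.9 to 43.5 CPM (median 31.3), with ranges that did not overlap (2.76 ± 0.16, adjusted p = 2.9e-11). The cell cycle gene *Ccnd1* was 142 to 366 CPM (median 237) against 16.1 to 79.5 CPM (median 42.0), also without overlap (2.47 ± 0.11, adjusted p = 1.1e-12). *Wnt4* (1.42 ± 0.19), *Vdr* (1.35 ± 0.13), the transcription factor *Irf1* (1.44 ± 0.11) and the proteoglycan *Omd* (1.26 ± 0.16) were among the 12 highest. Lower in members were *Vwa1* (-2.67 ± 0.11), the secreted hormone *Stc1* (-2.39 ± 0.14), the stress pseudokinase *Trib3* (-1.99 ± 0.16) and glycogen synthase *Gys1* (-1.63 ± 0.10), all in 12 of 12 pools. The neutral sphingomyelinase *Smpd3*, needed for mineralization, was 196 to 723 CPM (median 452) in members and 94.8 to 657 CPM (median 213) in those cells (0.96 ± 0.10, adjusted p = 2.0e-07). It was lower than in osteocalcin-lower cells (-0.14 ± 0.05, adjusted p = 0.043), a call lost without pool 3, 4, 5, 6, 7, 12, 14 or 18 (-0.14 to -0.11, adjusted p from 0.063 to 0.13) and under 9 other settings (-0.14 to -0.08, adjusted p from 0.06 to 0.61). Against all others *Smpd3* did not pass (0.11 ± 0.06, adjusted p = 0.15), but did without pool 14 (0.16, adjusted p = 0.024) or 18 (0.14, adjusted p = 0.042).

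**Figure D4:**
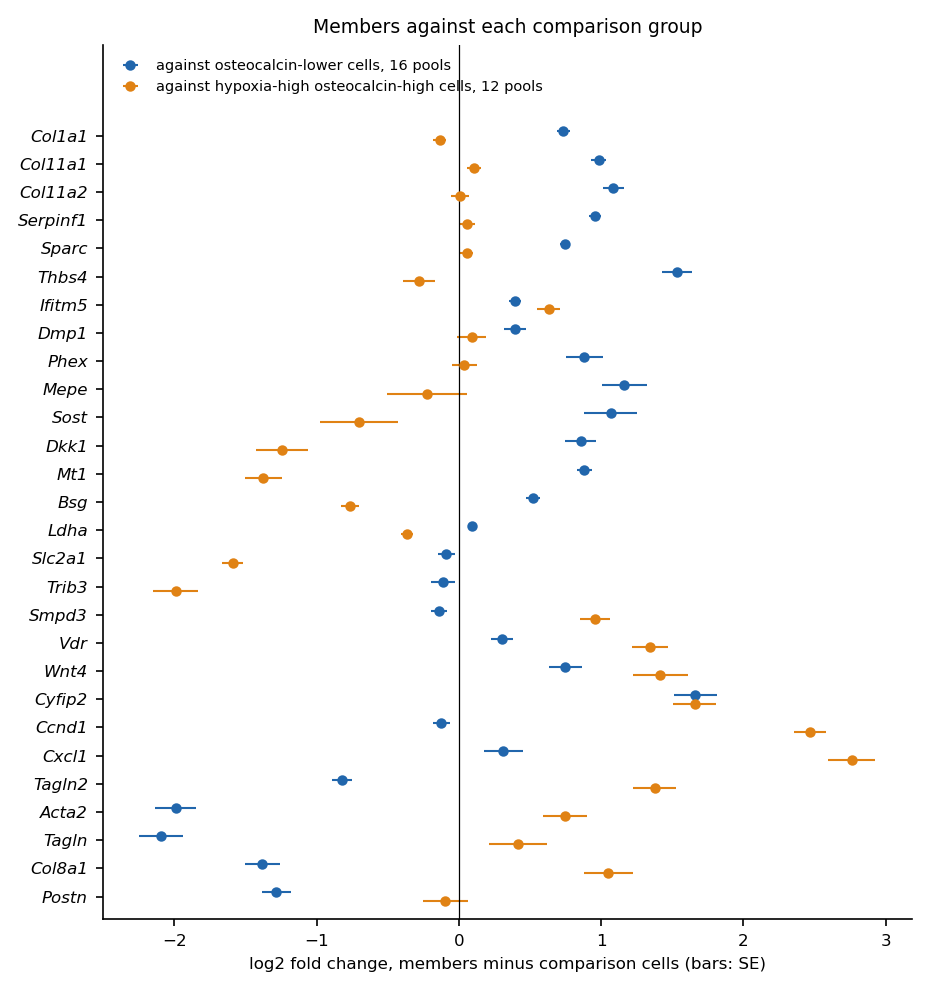
Log2 fold change (x axis, bars SE) of 28 genes in members against osteocalcin-lower cells (blue, 16 pools) and against hypoxia-high osteocalcin-high cells (orange, 12 pools). *Col1a1*, *Col11a1*, *Col11a2*, *Sparc*, *Serpinf1* and *Thbs4* lie right of 0 in blue and between -0.28 and 0.10 in orange, *Mt1*, *Bsg*, *Dkk1* and *Sost* change sign, and *Tagln*, *Postn*, *Col8a1* and *Acta2* lie left of 0 in blue.

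To see whether genes followed osteocalcin in steps, all *Ibsp*-high cells under the score limit were ranked by osteocalcin level within each pool, cut into 10 bins of equal number and their counts summed. Median osteocalcin rose from 1.82 to 515 UMIs per 10000 from the lowest to the highest bin, and all cells of the highest bin were members. These values are a description, since the bins use the same cells as the rule. Mean *Thbs4* rose from 167 to 1297 CPM, *Col11a1* from 1137 to 3834 and *Serpinf1* from 708 to 2059. Mean *Mepe* was highest in bin 8 (1009 ± 823 CPM, SD over 16 pools, against 118 ± 93.0 in the lowest and 819 ± 592 in the highest). Mean *Dmp1* was 784 ± 257 in bin 8 and 783 ± 293 in bin 9, against 455 ± 261 in the lowest and 679 ± 301 in the highest. For both genes the step down from bin 8 was smaller than the SD over pools, and it was not tested. The progenitor genes ran down the scale, *Tagln* from 192 to 14.98 CPM and *Acta2* from 379 to 41.3. *Alpl* eased from 2038 to 1374 and *Runx2* from 137 to 109.

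**Figure D5:**
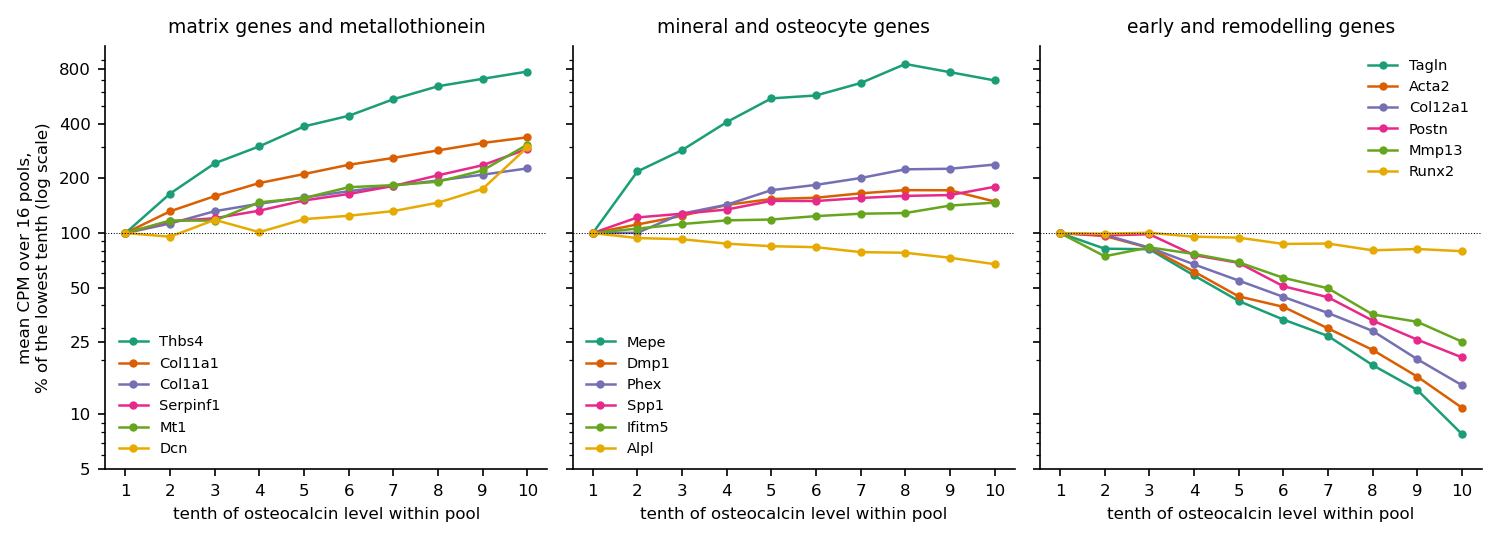
Mean CPM over 16 pools in each of 10 bins of osteocalcin level (x axis), as percent of the lowest bin (y axis, log scale), for *Ibsp*-high cells under the score limit. Matrix genes climb to the highest bin, and *Tagln*, *Acta2*, *Col12a1* and *Postn* end at 7.80% to 20.6% of the lowest bin. *Mepe* and *Dmp1* are highest in bin 8, by margins smaller than their SD over pools.

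Pools differed most in a few genes. Among 1370 genes with a mean of at least 100 CPM in members, the SD over pools of log2(CPM + 1) had a median of 0.24. The 8 most variable were *Xist*, *Ftl1-ps1*, *Mmp13*, *Sost*, *Mepe*, *Gm10076*, *Rgs5* and *Gm10260*. *Xist* depends on the number of female mice in a pool, and *Ftl1-ps1*, *Gm10076* and *Gm10260* are copies of abundant genes whose reads can be shared, so their levels are uncertain. *Mepe* ran from 56.7 CPM (pool 10) to 2059 (pool 3), and *Sost* was likewise lowest in pool 10 and highest in pool 3. *Mmp13* ran from 23.6 (pool 10) to 2688 (pool 1). *Rgs5*, a G-protein regulator typical of pericytes, was at 886 CPM in pool 6 and 10.0 in pool 7, and members were above osteocalcin-lower cells in 16 of 16 pools (1.53 ± 0.15, adjusted p = 3.0e-08).

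Members held slightly fewer detected genes at equal depth. Thinned to 4000 UMIs of genes outside the rule, pool medians were 1438 to 1652 detected genes in members (median 1534) and 1476 to 1664 in the other *Ibsp*-high cells (median 1586.5). The difference was -46.3 ± 18.7 (SD, n = 16), lower in 16 of 16 pools (two-sided exact sign-flip permutation p = 3.1e-05, the smallest these pools allow, adjusted p = 6.1e-05). Before thinning, medians over cells were 3800 and 3860 genes. Cytosolic ribosomal protein genes took 13.8% to 22.7% of UMIs outside the rule in members (median 17.7%) and 17.8% to 22.9% in the others (median 20.8%). The difference was -2.74 ± 2.03 points, lower in 15 of 16 pools (exact permutation p = 9.2e-05, adjusted p = 9.2e-05).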

How the data were processed

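Cells were BMSC-OBs of 16 pools, each sequenced in 2 runs. Per the labels and the study's methods, the authors made the deposited UMI counts per gene and barcode with Cell Ranger (version 5.0.0 in the submitters' processing notes) against GRCm38, in droplet libraries made with 10x 3′ chemistry. No cells were assigned to mice, and the pool is the replicate. With pools as blocks or pairs, p-values set the difference within pools against its variation between pools of different mice.

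Cells were selected from 1 run as stated above, and UMIs were summed per pool and class in pools with at least 20 cells of each. The 13 genes of the rule and 13 mitochondrially encoded genes were left out of the tests and the library totals. Sums were tested with edgeR 4.0.16 (R 4.3.3, filterByExpr, TMM, quasi-likelihood test, pool as block), with Benjamini-Hochberg adjustment over all genes at 0.05. Samples of the same pool deviated together (lowest correlation 0.404, median 0.606, against -0.026 between pools); both classes of a pool come from 1 library, so the pool was the block. Named genes were, per comparison, the 12 highest and 12 lowest log2 fold changes among those passing, in the same direction in every pool, at a mean of 20 CPM or more, the 8 genes of largest SD over pools above 100 CPM, and 39 gene lists. The members and lists were chosen with earlier results of these data known. Cells were thinned to 4000 UMIs for shares and detected genes (seed 7). Shares of cells with a UMI cover counting error and free RNA as well as expression. On simulated counts with 200 genes changed 2-fold, the test recovered 100%, 100% and 99.5% of them in the comparisons with all others, osteocalcin-lower cells and hypoxia-high osteocalcin-high cells, with 10, 7 and 18 false calls among 11990, 11967 and 9306 genes. Against all others, 2571 genes were higher and 3042 lower in the data, many more than those 200. Recovery and false calls with that many genes differing were not tested. Alternatives were DESeq2 1.42.0, other filters, scaling and selections, and leaving out each pool. The other run sequenced the same libraries and was used as an alternative only. Some genes that met the naming rule are not reported here.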

Additional observations from a re-analysis of the deposited data

How the results depend on the processing

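Of 275 named values that passed, 206 passed under every alternative. The cause of the changes below was not tested. Leaving out 1 pool gave 2428 to 3056 higher and 2583 to 3017 lower genes against all other *Ibsp*-high cells, 2324 to 2655 and 2320 to 2822 against osteocalcin-lower cells, and 1898 to 2128 and 2041 to 2201 against hypoxia-high osteocalcin-high cells. The difference in detected genes ran from -48.6 to -44.3 and in ribosomal share from -2.99 to -2.44 points.

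Without the pool block, the counts were 1293 higher and 1450 lower against all others and 1056 and 985 against osteocalcin-lower cells, and 58 named values lost the call. Without TMM they were 1452 and 4887, and 1110 and 5701, with the median log2 fold change over all genes tested at -0.109 and -0.142. Cells thinned to equal depth gave 1499 and 1593 of 9553 genes tested against all others. They gave 1338 and 1083 of 9391 against osteocalcin-lower cells, and 873 and 985 of 5076 against hypoxia-high osteocalcin-high cells. A stricter osteocalcin limit (4007 members) gave 1291 and 1408 of 7817 genes tested against hypoxia-high osteocalcin-high cells, in 10 pools. Added after seeing the data, pools of alike sex-linked make-up gave 1843 lower against all others and 1603 higher and 1665 lower against osteocalcin-lower cells, with 28 named values lost, among them *Enpp1*, *Esr1* and *Vdr* against osteocalcin-lower cells. Cells typed by Y-linked UMIs (3734 members) gave 1670 lower against all others, 1763 lower against osteocalcin-lower cells, and 1267 and 1331 against hypoxia-high osteocalcin-high cells in 7 pools, with 21 lost.

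With the score limit at the median, signs turned for *Mt1* (-0.43, adjusted p = 0.018) and *Loxl2* (-0.0673) against all others and for *Acta2* (-0.0794) and *Mgp* (-0.12) against hypoxia-high osteocalcin-high cells. Without TMM they turned for *Atf4* against all others (-0.0055) and for *Furin* (-0.0918, adjusted p = 0.0064) and *Ldha* (-0.0324) against osteocalcin-lower cells. Named values that lost the call numbered 18 at equal depth, 17 with the score limit at the median, 16 without TMM, 10 under the stricter osteocalcin limit, 6 with no low-count filter, 5 in DESeq2, 5 with terciles set within each pool, 4 in the other run and 2 without pools 1 and 2.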

Other observations

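Counts in the lists below are to be read beside the shares over all genes tested. These were 21.4% higher and 25.4% lower against all others, 20.8% and 22.8% against osteocalcin-lower cells, and 23% and 23.7% against hypoxia-high osteocalcin-high cells. Of 31 genes of the respiratory chain encoded in the nucleus, 18 were higher and 1 lower against all other *Ibsp*-high cells (median 0.11). The counts were 18 and 3 against osteocalcin-lower cells, and 19 and 1 against hypoxia-high osteocalcin-high cells. *Ndufa1*, a complex I subunit, was 223 to 557 CPM (median 336) in members and 112 to 354 CPM (median 197) in the others (0.66 ± 0.04, adjusted p = 5.8e-10), and cytochrome c (*Cycs*) rose by 0.39 ± 0.05 and, against hypoxia-high osteocalcin-high cells, by 1.07 ± 0.08. Immediate-early genes, which respond within minutes to stimuli and to cell handling, were higher in 11 and lower in 3 of 16 against all others, 11 and 4 against osteocalcin-lower cells, and 8 and 0 of 15 against hypoxia-high osteocalcin-high cells. The AP-1 subunit *Jun* was 134 to 428 CPM (median 298) against 141 to 294 CPM (median 211) (0.48 ± 0.08, adjusted p = 4.2e-05), while *Egr1* was lower (-0.25 ± 0.05, adjusted p = 4.7e-04). The part of cell handling in these values was not tested.

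Genes of the unfolded protein and amino-acid stress response were higher in 17 and lower in 5 of 31 against osteocalcin-lower cells, 13 and 7 against all others, and 5 and 13 against hypoxia-high osteocalcin-high cells. The serine synthesis enzyme *Phgdh* rose against osteocalcin-lower cells (0.40 ± 0.05) and against hypoxia-high osteocalcin-high cells (0.38 ± 0.07), and the endoplasmic reticulum chaperone *Hspa5* was lower than in osteocalcin-lower cells (-0.20 ± 0.04). The transcription factor *Ddit3* (CHOP) was 65.7 to 159.7 CPM (median 105) in members and 141 to 361 CPM (median 217) in hypoxia-high osteocalcin-high cells (-1.09 ± 0.12, adjusted p = 3.6e-07), and it was slightly higher than in osteocalcin-lower cells (0.15 ± 0.05). Of the insulin-like growth factor axis, 0 were higher and 6 lower of 12 against all others, 1 and 6 against osteocalcin-lower cells, and 1 and 3 of 8 against hypoxia-high osteocalcin-high cells. The imprinted RNA *H19* was 5.28 to 25.6 CPM (median 15.4) against 4.39 to 108 CPM (median 50.2) (-1.66 ± 0.13, adjusted p = 5.3e-09) and the binding protein gene *Igfbp5* was lower (-0.60 ± 0.16).

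Of 10 interferon-inducible genes, 2 were higher and 5 lower in both 16-pool comparisons and 3 and 0 of 7 were so against hypoxia-high osteocalcin-high cells. *Ifitm1* rose with *Ifitm5* (0.63 ± 0.11) and *Ifitm3* was lower (-0.51 ± 0.09) but higher than in hypoxia-high osteocalcin-high cells (0.46 ± 0.07), its lower call lost without the pool block (-0.44, adjusted p = 0.061), and since these are neighbouring paralogs their reads may be shared. Of 16 integrins and adhesion genes, 5 were higher and 6 lower against all others, 6 and 7 against osteocalcin-lower cells, and 5 and 3 of 15 against hypoxia-high osteocalcin-high cells, with *Cadm1* higher in each (0.86 ± 0.09 against all others). Of 13 chemokines and osteoclast-coupling genes the counts were 3 and 4, 1 and 7, and 5 and 2 of 8, and *Lif* was higher in each (0.41 ± 0.11 against all others). Of 15 matrix-remodelling genes the counts were 7 and 6, 8 and 6, and 6 and 0 of 14, and the aggrecanase *Adamts5* rose by 0.81 ± 0.09 against all others. Of 12 genes responsive to vitamin D or glucocorticoid they were 3 and 1, 6 and 1, and 4 and 5 of 11, with the glucocorticoid target *Fkbp5* lower in each (-0.31 ± 0.04 against all others).

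Of 8 neighbours of the osteocalcin genes, 5 were higher and 1 lower against all others, 3 and 1 against osteocalcin-lower cells, and 3 and 1 of 7 against hypoxia-high osteocalcin-high cells. *Pmf1*, which lies next to *Bglap*, did not pass against all others (0.08 ± 0.07, adjusted p = 0.36). Osteoclast markers were also 2 higher and 0 lower of 3 against osteocalcin-lower cells and 2 of 2 against hypoxia-high osteocalcin-high cells. Of 5 sex-linked genes, *Xist* and the 4 Y-linked genes did not pass against all others or against hypoxia-high osteocalcin-high cells, and *Xist* was lower than in osteocalcin-lower cells (-0.44 ± 0.13, adjusted p = 0.013), a call lost in DESeq2 (-0.42, adjusted p = 0.078), without the pool block (-0.31, adjusted p = 0.86) and in the 10 pools of alike sex-linked make-up (-0.32, adjusted p = 0.21). The lists the study drew from these samples for its clusters are not independent evidence. Of 4 genes of its OB1 cluster, 4 were higher against all others and against osteocalcin-lower cells, and 1 higher and 1 lower against hypoxia-high osteocalcin-high cells. Of OB2, *Mt1* and *Bsg* did not pass against all others. Of these, 2 of 2 were higher than in osteocalcin-lower cells and lower than in hypoxia-high osteocalcin-high cells. *Bsg* passed as higher against all others under the stricter osteocalcin limit (0.20, adjusted p = 0.016). It also did so in Y-typed cells (0.30, adjusted p = 0.005) and without pool 6 (0.17, adjusted p = 0.034). Of 4 osteoblast progenitor genes the counts were 2 higher, 2 higher and 1 lower, and 3 higher. Of 5 osteocyte-like cell genes they were 4 higher, 5 higher, and 1 higher and 2 lower. Of 4 genes that the study followed up, 1 was higher and 1 lower against all others and 2 higher and 1 lower against osteocalcin-lower cells, and *S100a1*, *Pkm* and *Fgfrl1* did not pass against hypoxia-high osteocalcin-high cells, with *S100a1* higher (0.33 ± 0.07) and the mitotic gene *Tpx2* lower (-0.81 ± 0.14) against all others. The *S100a1* call was lost without the pool block (0.32, adjusted p = 0.087) and the *Tpx2* call without the pool block (-0.60, adjusted p = 0.17) and in Y-typed cells (-0.43, adjusted p = 0.094).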
